A study of Mus musculus with 56 samples.

Results

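The data described here are the 8 bulk ATAC-seq libraries of the GM-CSF clones, 4 clone pairs out of the 28 pairs and 56 libraries of the series. In ATAC-seq a transposase inserts adapters into open DNA, so that counts over a region report how accessible its chromatin was, not how strongly a gene was transcribed. The clones, numbered 19 to 22, were mouse granulocyte-monocyte progenitors (GMP) from Tet2 fl/fl bone marrow, immortalized with Hoxb8-ER, a Hoxb8 protein that is active only in the presence of estrogen, and kept undifferentiated in 0.5 µM beta-estradiol. Each clone grew from 1 sorted cell in GM-CSF at 10 ng/ml, and its cells were then given either Cre (Tet2 KO line) or GFP (control line) from an integrase-defective lentivirus at a multiplicity of infection of 200. The control lines therefore carried the same floxed alleles and Hoxb8-ER, and had been exposed to the same kind of virus. The 24 SCF clones, grown in SCF at about 100 ng/ml and treated the same way, served for comparison. Members were chosen by the treatment field and by the library names of the count table. The titles of 6 of the 8 libraries, those of clones 20, 21 and 22, name SCF instead.

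TET2 is a dioxygenase that oxidizes 5-methylcytosine and so opens the way to DNA demethylation, and its loss is a frequent event of clonal hematopoiesis, in which 1 mutant stem cell lineage expands in the blood. GM-CSF signals through a receptor with an alpha chain (Csf2ra) and a shared beta chain (Csf2rb) to JAK2 and STAT5, and drives myeloid progenitors towards monocytes and macrophages. Some transcription factors, among them CTCF, the insulator protein that anchors chromatin loops, bind poorly when their site is methylated.

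The chromatin of the 8 libraries set them apart from the 48 SCF libraries, as the treatment field does and the titles do not. Peaks that were at least 4-fold more open in GM-CSF clones than in SCF clones took between 1.07% and 1.86% of counts in these 8 libraries and between 0.293% and 0.762% in the 48 SCF libraries. Peaks open mainly in SCF clones took between 1.16% and 2.54% against between 3.14% and 5.71%. For each clone, the peaks were chosen on the other clones. The groups did not overlap in either measure, and no label was changed on this account.

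Clones 19 and 20 were shallow. In clone 19 the control library held 114885 counts and the KO library 40876, and in clone 20 they held 88234 and 39379. Clone 21 had 543364 and 468878 counts, and clone 22 had 766838 and 437883. The KO library was the shallower one in every pair. Over the 10 kb windows tested below, control lines 19 and 20 did not differ beyond sampling noise (chi-square test p = 0.221, 5784 loci with enough counts). KO lines 19 and 20 did not either by the same chi-square test (p = 0.726), but only 1089 loci had enough counts. Although deep, KO lines 21 and 22 also did not (chi-square test p = 0.110, chi-square per degree of freedom 1.02, 8909 loci). Over single peaks, KO lines 21 and 22 differed beyond sampling noise (p = 4.21e-05, chi-square per degree of freedom 1.05). The labels name them as separate clones, so 4 pairs were kept as the sample size, and key values are also given with clones 19 and 20 summed into 1 pair. The summed accessibility around 8 myeloid marker genes, Spi1, Cebpa, Mpo, Elane, Csf1r, Lyz2, Itgam and Fcgr3, was between 408 and 596 CPM, counts scaled to a common library total, in the 8 libraries. Of markers of other cells, 6 lymphoid loci summed to between 150 and 255 CPM, most of it at Cd79a, 5 erythroid and megakaryocyte loci to between 102 and 204 CPM, of which Klf1 held between 54.2 and 165 CPM and Gata1 6.81 CPM or less, and 5 stromal, endothelial and epithelial loci to between 25.5 and 135 CPM. The part of these signals in the results was not tested.

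The excision of Tet2 itself was not read from these libraries. The paper measured it by quantitative PCR and reports that deletion was nearly complete in all clones. Accessibility within 10 kb of the Tet2 start site was 36.6, 37.8, 39.4 and 32.1 CPM in control lines 19, 20, 21 and 22, and 27.1, 0, 31.2 and 34.0 CPM in the KO lines. The 0 in KO line 20 allows up to 76.6 CPM, the level of 3 counts in that library, and the groups overlapped. The log2 fold change of KO over control was -0.21 (SE 0.35, 4 pairs).

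The first question was which single loci changed with Tet2 loss in the GM-CSF clones. A locus was the sum of all peaks centered within 10 kb of a gene's transcription start site, and 8909 loci with at least 80 counts in the 8 libraries were tested with edgeR's quasi-likelihood test, with the clone as a block and the spread shared with the SCF clones. Accessibility at 1 locus, Pknox1, rose in the KO lines at an adjusted p threshold of 0.05, which is 0.0112% of the loci tested, and no locus fell. At an unadjusted p under 0.05, 281 loci were higher (3.15%) and 261 lower (2.93%). With DESeq2 no locus passed and 382 had an unadjusted p under 0.05. In the SCF pairs, where 24 clones give a median standard error of 0.0871 against 0.249 here, 5.28% of the same loci rose and 1.72% fell. No locus passed the test of the difference between GM-CSF and SCF pairs, with 171 higher (1.92%) and 206 lower (2.31%) at an unadjusted p under 0.05.

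Pknox1 encodes a homeodomain protein of the TALE class that, like its relatives of the MEIS family, binds DNA together with PBX and HOX proteins. The gene (ENSMUSG00000006705.13) lies at chr17:31564734-31607693 on the forward strand of GRCm38. Its locus measured 137, 75.6, 71.7 and 81.4 CPM in control lines 19, 20, 21 and 22, and 217, 179, 141 and 147 CPM in the KO lines. The KO line was higher in each of the 4 pairs and the lowest KO value lay above the highest control value, a pattern found at 87 of the 8909 loci (0.977%). The log2 fold change was 0.90 (SE 0.19, 95% interval 0.53 to 1.27, adjusted p = 0.0198 by edgeR's quasi-likelihood test). In the SCF clones it was 0.13 (95% interval -0.01 to 0.28). The difference of 0.77 (SE 0.20) had an unadjusted p of 0.000156 by edgeR and an adjusted p of 0.998. The call was lost with DESeq2 (adjusted p = 0.109), without the clone as a block (0.224), without clone 20 (0.0561), without clone 21 (0.961), without clone 22 (0.358), without both shallow clones (0.0506) and with 50 kb windows (0.630), and the estimate stayed above 0 in all 15 alternatives, between 0.49 and 1.06.

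Most counts of the Pknox1 locus lay in a single peak. This peak, chr17:31564683-31564983 on GRCm38, covers the annotated start of the gene and held 233 of the counts of the locus in the 8 libraries, while the other 7 peaks with a count held between 2 and 12 each. Its counts in control and KO lines were 14 and 8 in clone 19, 4 and 5 in clone 20, 32 and 61 in clone 21, and 50 and 59 in clone 22. Scaled to library size these were 129, 52.5, 59.8 and 62.0 CPM in the control lines and 216, 126, 123 and 133 CPM in the KO lines. Every KO line was above its own control, and control line 19 overlapped with the KO lines of the other clones. This was also the only peak called among 5365 tested, 0.0186% of them at the adjusted p threshold of 0.01 that the study used for peaks, with a log2 fold change of 1.05 (SE 0.20, adjusted p = 0.001 by edgeR). The SCF pairs gave 0.10, and the difference of 0.95 had an adjusted p of 0.0506. No peak was called lower, and 185 peaks were higher (3.45%) and 210 lower (3.91%) at an unadjusted p under 0.05.

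**Figure D1:**
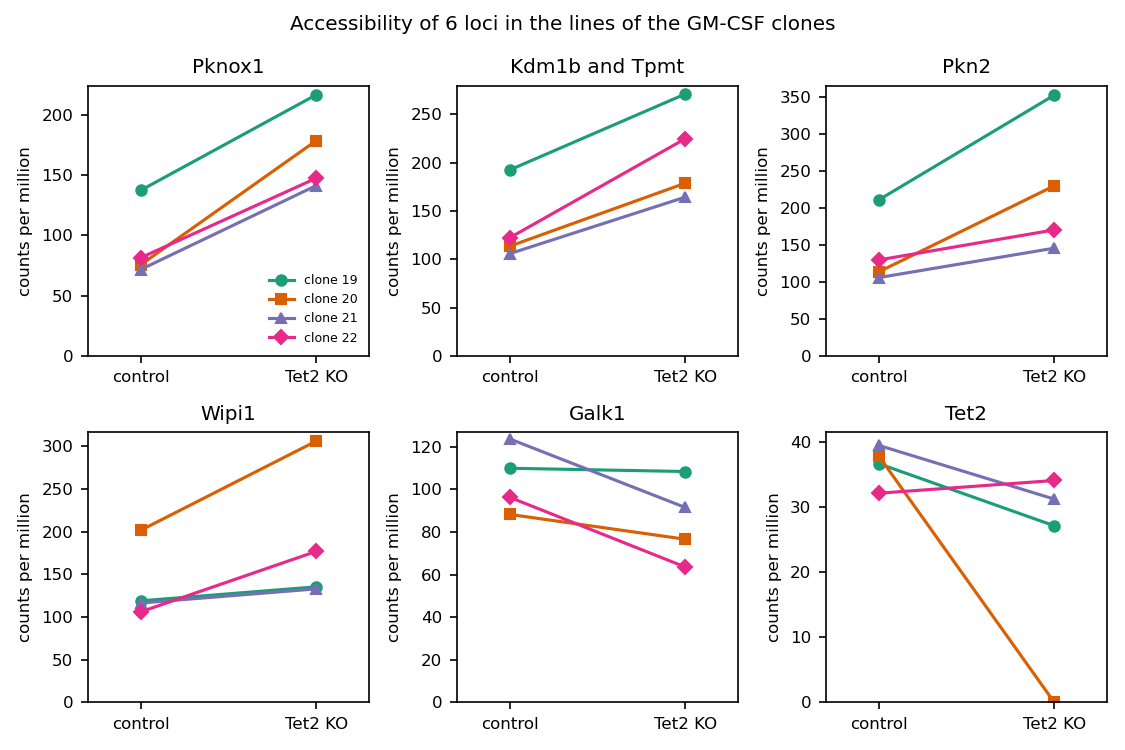
Accessibility in CPM (vertical axis, each panel from 0) in the control and Tet2 KO line of GM-CSF clones 19 to 22 at 6 loci, with 1 line for each clone. Pknox1, Kdm1b with Tpmt, Pkn2 and Wipi1 were higher in the KO line of all 4 clones, Galk1 was lower in all 4, and Tet2 was lower in 3 of them.

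The next loci by p did not pass the threshold and are given as values. Kdm1b, a lysine demethylase of histone H3, and Tpmt, a thiopurine methyltransferase, lie on opposite strands, overlap at their starts and share 1 signal. Their locus measured 192, 113, 106 and 122 CPM in the control lines and 271, 179, 164 and 225 CPM in the KO lines, higher in the KO line of all 4 pairs with overlap between the groups. The log2 fold change was 0.74 (SE 0.18, adjusted p = 0.0828 by edgeR's quasi-likelihood test). The locus was also among those that rose in the SCF clones, by 0.31. It became a call when loci needed 200 counts, when the promoter share was a covariate and when the GM-CSF libraries were fitted alone. Tatdn2, which encodes a protein with a TatD-type nuclease domain, measured 147, 176, 127 and 122 CPM in the control lines and 244, 204, 202 and 184 CPM in the KO lines, without overlap (log2 fold change 0.60, SE 0.16). Ap2a1, a subunit of the clathrin adaptor AP-2, measured 101, 202, 151 and 157 CPM against 244, 281, 218 and 236 CPM, also without overlap (0.60, SE 0.16). Uap1, which makes UDP-N-acetylglucosamine, measured 91.6, 101, 91.4 and 115 CPM against 163, 204, 173 and 147 CPM, again without overlap (0.65, SE 0.18). The other loci of this rank, Tomm40, Cdhr2, Sp4 and Ppm1b, had estimates between 0.57 and 0.63 and went up in 3 of 4 pairs each. All loci of this rank after Kdm1b and Tpmt had adjusted p-values between 0.436 and 0.465.

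On the lower side the 10 loci with the smallest p had adjusted p-values between 0.465 and 0.494. Nbn, a subunit of the MRN complex of double-strand break repair, measured 45.8, 37.8, 71.7 and 61.7 CPM in the control lines and 0, 0, 27.0 and 40.8 CPM in the KO lines. Zero counts in KO lines 19 and 20 allow up to 81.3 and 76.6 CPM, above the control values, so the difference of -1.05 (SE 0.30) rests on clones 21 and 22. Prkci, an atypical protein kinase C, measured 71.7 and 62.9 CPM in control lines 21 and 22 and 43.7 and 20.4 CPM in their KO lines, while in clone 20 the KO line was the higher one (estimate -1.02). Rogdi, whose groups did not overlap, as at 1.93% of all loci, measured 147, 88.2, 120 and 101 CPM in the control lines and 54.2, 25.5, 76.9 and 70.3 CPM in the KO lines (-0.66, SE 0.21). Dnaaf3, a dynein assembly factor, measured 82.4, 113, 34.0 and 67.9 CPM against 27.1, 0, 22.9 and 34.0 CPM (-1.01), where KO lines 19 and 20 had 1 and 0 counts and control line 21 and KO line 22 were level. Setd1b, a histone H3 lysine 4 methyltransferase, had an estimate of -0.52 (SE 0.16), and Tle3, a Groucho corepressor, one of -0.53 (SE 0.18). The remaining members were Bscl2 with its neighbor Gng3, Alg6 and Slc43a2, with estimates between -1.21 and -0.66.

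Loci at which the GM-CSF and SCF pairs differed most, by p, were Pknox1, Cdh24, Rps3, Prkci and Nbn, and none passed the adjusted threshold. Cdh24, a cadherin, measured 27.5, 50.4, 39.4 and 43.2 CPM in the control lines and 81.3, 51.0, 62.4 and 72.6 CPM in the KO lines. The pair of clone 20 was level, on 4 and 2 counts, and the KO lines of the other 3 clones were higher (0.72, SE 0.27). In clone 19 this rested on 3 counts in each line. In the SCF clones Cdh24 fell by 0.31 on the log2 scale. Rps3, a protein of the small ribosomal subunit, had an estimate of -0.80 (SE 0.28) in the GM-CSF pairs and 0.20 in the SCF pairs. The difference was 1.03 at Cdh24 (SE 0.28, unadjusted p = 0.000347 by edgeR). At the level of single peaks the smallest p after Pknox1 on the higher side belonged to promoter peaks of Gtpbp6 (0.87), Tatdn2 (0.73), Kdm1b (0.68) and Sp4 (0.70). On the lower side they belonged to promoter peaks of Rogdi (-0.90), Rps3 (-1.15), Ercc1 (-1.18) and Ppm1d (-1.25) and to an intergenic peak 9152 bp from Gm38293 (-1.22).

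The next question was whether loci that changed with Tet2 loss in the SCF clones moved the same way in the GM-CSF clones. The calls were taken from a fit of the 24 SCF pairs alone. The GM-CSF estimates came from the fit of all 56 libraries, so scaling and spread were shared with the SCF libraries. Of 461 loci called higher in the SCF pairs, 378 (82.0%) had an estimate above 0 in the GM-CSF pairs, against 47.8% of all 8909 loci. Their median log2 fold change was 0.19 in the GM-CSF pairs and 0.26 in the SCF pairs, and the median over all loci was -0.01 in the GM-CSF pairs. At an unadjusted p under 0.05, 92 of the 461 were higher (20.0%, against 3.15% of all loci) and 2 were lower. Of 158 loci called lower, 119 (75.3%) had an estimate below 0, against 52.2% of all loci, with a median of -0.15 against -0.32 in the SCF pairs. At an unadjusted p under 0.05, 11 of the 158 were lower (6.96%, against 2.93% of all loci) and 3 were higher. Single peaks gave 123 of 146 called higher (84.2%, against 47.2% of all peaks) and 21 of 30 called lower (70.0%, against 52.8%). For 367 of the 461 loci and 144 of the 158, the 95% interval in the GM-CSF pairs included 0. The median standard error in the GM-CSF pairs was 0.184 for the 461 loci, 0.270 for the 158 and 0.249 over all loci. These errors also enter the shares at an unadjusted p under 0.05. With the GM-CSF libraries fitted alone, 82.6% of the 461 were above 0 and 75.3% of the 158 below 0.

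Clone 21 carried much of this. Without it the share fell from 82.0% to 66.2% for loci called higher and from 75.3% to 62.0% for loci called lower, and the median of the loci called higher fell from 0.19 to 0.09. Without the shallow clones 19 and 20 the shares were 84.8% and 75.3%. When all counts of the loci called higher were pooled into 1 value for each pair, the log2 ratio of KO over control was -0.09 in clone 19, 0.09 in clone 20, 0.28 in clone 21 and 0.17 in clone 22. The mean was 0.11 ± 0.15 (SD, n = 4, exact two-sided sign-flip permutation p = 0.375, in a test that cannot go below 0.125 with 4 pairs). For loci called lower the ratios were -0.02, -0.23, -0.23 and -0.06, with a mean of -0.14 ± 0.11 (SD, n = 4, exact p = 0.125). The single peaks called lower were also below 0 in all 4 pairs, with a mean of -0.16 ± 0.14 (SD, n = 4, exact p = 0.125). In clone 19 the loci called higher went the other way, with a 95% counting interval of -0.16 to -0.01. The mean over the 24 SCF pairs was 0.23 for loci called higher and -0.33 for loci called lower, the values on which the loci were chosen.

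**Figure D2:**
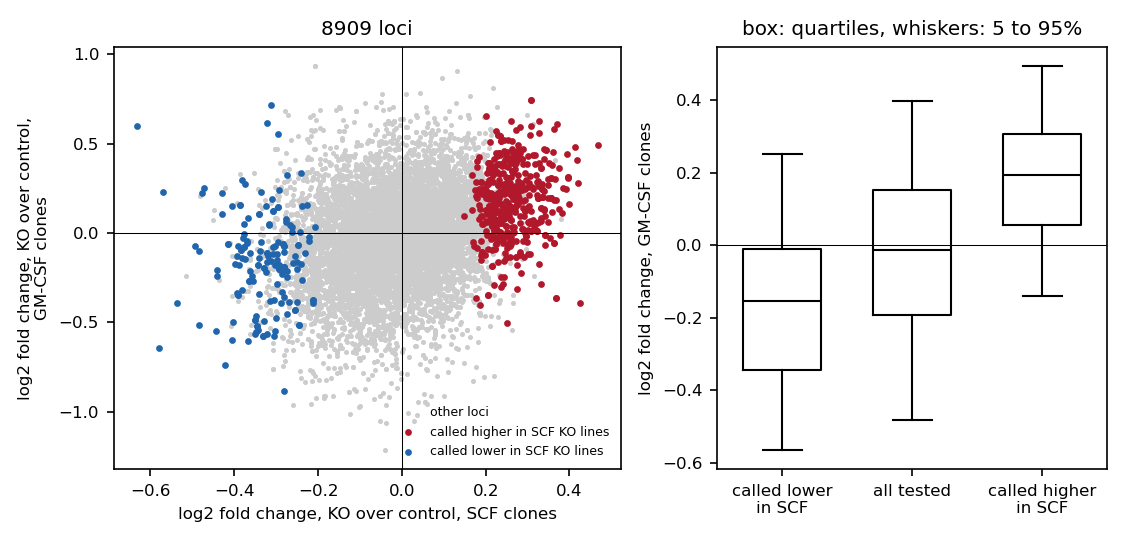
Left, log2 fold change of KO over control in the GM-CSF clones (vertical) against that in the SCF clones (horizontal) for 8909 loci, with loci called higher or lower in the SCF clones colored. Right, the GM-CSF values of 158 loci called lower, of all loci and of 461 loci called higher, as boxes of quartiles with the median as a line and whiskers from 5 to 95%, with medians of -0.15, -0.01 and 0.19.

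Among the loci earlier named for the largest rises in the SCF clones, 9 of 10 had an estimate above 0 here, against 47.8% of all loci, with a median of 0.31. On the higher side 4 had an unadjusted p under 0.05, against 3.15% of all loci, and none passed the adjusted threshold. Wdr64 and Chml in this list are neighbors that share 1 signal, with 426 and 425 counts in the 8 libraries. Pkn2, a kinase of the protein kinase N family, measured 211, 113, 106 and 130 CPM in the control lines and 352, 230, 146 and 170 CPM in the KO lines. It was higher in all 4 pairs, as were 5.38% of all loci, with a log2 fold change of 0.49 (SE 0.17) that lay within 0.02 of the SCF value. Wipi1, which binds phosphoinositides on forming autophagosomes, measured 119, 202, 116 and 106 CPM against 135, 306, 133 and 177 CPM (0.48, SE 0.18). Clic4, an intracellular chloride channel protein, and Inpp5f, a phosphoinositide phosphatase, had estimates of 0.41 and 0.44 and were higher in 3 of 4 pairs. Smchd1, a chromatin protein required for X inactivation, was the exception, with -0.39 (SE 0.28) here against 0.43 in the SCF clones and an unadjusted p of the difference of 0.00448 by edgeR.

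Among the loci earlier named for the largest falls in the SCF clones, 9 of 10 had an estimate below 0, against 52.2% of all loci, with a median of -0.20, and 2 had an unadjusted p under 0.05, against 2.93% of all loci. Some of the 10 are neighbors that share most of their counts, so they are not 10 separate signals. These are Atp6v0c with Amdhd2 (399 and 415 counts in the 8 libraries), Cox6a1 with Gatc (148 and 151) and Cdk12 with Med1 (193 and 179). Galk1, the galactokinase of galactose breakdown, measured 110, 88.2, 124 and 96.2 CPM in the control lines and 108, 76.6, 91.5 and 63.5 CPM in the KO lines, lower in all 4 pairs with overlap between the groups (-0.47, SE 0.21). Atp6v1g2, a subunit of the proton pump of lysosomes, measured 119, 139, 152 and 126 CPM against 54.2, 76.6, 97.7 and 120 CPM (-0.39, SE 0.19). Atp6v0c, of the membrane sector of the same pump, and Amdhd2 were also lower in all 4 pairs (-0.16 each). Atp6v0c was nearly level in clones 21 and 22, at 167 and 148 CPM against 162 and 147 CPM. It had 3 and 2 counts in KO lines 19 and 20. Efna2, an ephrin ligand, had an estimate of 0.08. Both lists were named on the SCF libraries of this series, so their direction there is not a separate result.

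The promoters of 3 of these genes are shown because they hold the SP box CCCCGCCC, the site of SP and KLF factors whose group of peaks is described further on. The sequences are the 250 bases before the start site from RefSeq on GRCm38.p6, written 5′ to 3′ on the strand of the gene, and capitals mark the SP box on either strand. Kdm1b lies at chr13:47043249-47043498 on the forward strand, Pkn2 at chr3:142882005-142882254 and Galk1 at chr11:116012720-116012969 on the reverse strand.
Kdm1b: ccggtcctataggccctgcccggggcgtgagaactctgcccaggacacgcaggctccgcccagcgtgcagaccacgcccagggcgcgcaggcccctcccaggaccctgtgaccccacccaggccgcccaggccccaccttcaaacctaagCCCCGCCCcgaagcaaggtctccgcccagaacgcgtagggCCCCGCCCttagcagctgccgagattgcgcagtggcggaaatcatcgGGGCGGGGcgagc
Pkn2: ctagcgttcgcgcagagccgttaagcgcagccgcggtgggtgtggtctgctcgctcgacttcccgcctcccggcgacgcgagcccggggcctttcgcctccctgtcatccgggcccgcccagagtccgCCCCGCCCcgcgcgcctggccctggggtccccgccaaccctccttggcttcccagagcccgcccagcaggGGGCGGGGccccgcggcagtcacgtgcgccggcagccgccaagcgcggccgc
Galk1: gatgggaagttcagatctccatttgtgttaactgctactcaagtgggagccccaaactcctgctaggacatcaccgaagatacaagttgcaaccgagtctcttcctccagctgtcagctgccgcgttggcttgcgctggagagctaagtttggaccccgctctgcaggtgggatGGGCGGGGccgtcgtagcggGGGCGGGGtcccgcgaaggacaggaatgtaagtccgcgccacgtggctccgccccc
The box occurred 3 times before Kdm1b and 2 times before both Pkn2 and Galk1, that is, before loci with estimates on either side of 0. It was present in 5278 of 32851 RefSeq promoters of this length (16.1%).

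Gene lists for the tissue and the cytokine were followed next, by counts and medians without a test. No member of any of them passed the adjusted threshold. Of 25 genes of GM-CSF and STAT5 signaling, 22 were tested, 12 had an estimate above 0, and the median was 0.06. At the receptor chains no difference beyond the error was detected. Csf2ra measured 119, 151, 87.8 and 105 CPM in the control lines and 81.3, 153, 95.6 and 152 CPM in the KO lines (0.30, SE 0.20), and Csf2rb 18.3, 25.2, 39.4 and 44.4 CPM against 81.3, 51.0, 49.9 and 38.6 CPM (0.20, SE 0.30). Csf2rb2, the mouse-specific beta chain, had 27 counts in all and was not tested. Within this list Mcl1, a survival factor of the BCL2 family, had an unadjusted p under 0.05 on the higher side (0.36), and the feedback inhibitors Socs2 (-0.60) and Socs3 (-0.42) on the lower side. Over all loci 3.15% were higher and 2.93% lower at that p. Socs3 measured 110, 101, 125 and 139 CPM in the control lines and 81.3, 102, 97.7 and 97.6 CPM in the KO lines.

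The neutrophil list was the 1 list of mature myeloid genes whose pooled counts were lower in the KO line of every pair. Its 26 genes together gave log2 ratios of -0.22, -0.15, -0.12 and -0.06 in clones 19 to 22, with 8 of 20 tested members above 0, a median of -0.11 and no member at an unadjusted p under 0.05. The SCF median of the same members was -0.08. The summed level was 1410, 1462, 1513 and 1546 CPM in the control lines and 1138, 1225, 1424 and 1509 CPM in the KO lines, so the groups overlapped. KO lines 19 and 20 held 42 and 48 counts of the list, and no error was computed for the 4 ratios. The 5 erythroid and megakaryocyte marker loci were also lower in every pair, with -0.49, -0.46, -0.48 and -0.13. The list of 20 erythroid and megakaryocyte genes was above 0 in 3 pairs. The monocyte and macrophage list had 7 tested members and a median of -0.09, and the list of macrophage genes under PPARg had 5 tested and a median of 0.05. The list of stem and early progenitor genes had 10 of 28 members with enough counts, 1 of them above 0 and a median of -0.25, against -0.02 in the SCF clones. Its pooled counts gave log2 ratios of 0.26, -0.19, -0.28 and -0.19 in clones 19 to 22, so clone 19 went the other way. Its lowest member was Tal1, a bHLH factor of stem and erythroid cells, with 64.1, 25.2, 39.4 and 38.3 CPM in the control lines and 81.3, 102, 10.4 and 15.9 CPM in the KO lines. The KO line was higher in clones 19 and 20, on 3 and 4 counts, and lower in clones 21 and 22 (estimate -0.97, SE 0.37).

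Of 22 loci that the study discussed, some of them in primary cells, 13 were tested and 3 had an estimate above 0, with a median of -0.11 against -0.06 in the SCF clones. Nfkb2, of the noncanonical NF-kB pathway, measured 110, 113, 91.4 and 127 CPM in the control lines and 0, 51.0, 91.5 and 86.2 CPM in the KO lines, and the 0 in KO line 19 allows up to 81.3 CPM (-0.41, SE 0.20). S100a8, a calgranulin of neutrophils and monocytes, had an estimate of -0.38 (SE 0.28), and C5ar1, the C5a receptor, one of 0.37 (SE 0.26). Runx1 and Gfi1b, factors of blood progenitors, stood at -0.36 each (SE 0.32 and 0.30). The other 9, Sox4, Gata2, Meis1, Irf8, Klf4, Csf1r, Zbtb16, Hlf and Kit, had between 18 and 79 counts in the 8 libraries together and were not tested.

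In the remaining lists single members reached an unadjusted p under 0.05, as did 542 of all 8909 loci (6.08%), and those named here were picked by that p. They were 1 of 14 tested DNA methylation, 1 of 9 interferon, 1 of 15 phagocyte and 1 of 15 inflammatory genes. Glycolysis gave 1 of 22, cell cycle 1 of 25 and housekeeping 1 of 15. Of 22 autophagy and lysosome genes 2 were higher and 2 lower. AP-1 genes had 1 each way of 22 and erythroid genes 1 each way of 7. Dnmt1, the maintenance DNA methyltransferase, had an estimate of 0.53 (SE 0.24) and was higher in 3 of 4 pairs, while the 14 tested genes of DNA methylation and demethylation had a median of 0.02. Irf7, a regulator of interferon genes (-0.84, SE 0.30), Ctsl, a lysosomal protease (-0.82, SE 0.32), and Fcer1g, the gamma chain of Fc receptors (-0.60, SE 0.29), were on the lower side. KO lines 19 and 20 had 1 count or 0 at each of these 3 loci, within limits of 81.3 and 76.6 CPM that lie above the control values of these lines' pairs, so the differences rest on clones 21 and 22. Irf7 measured 57.3 and 59.2 CPM in control lines 21 and 22 and 29.1 and 38.6 CPM in their KO lines. Sqstm1, the autophagy receptor p62, was higher in all 4 pairs, as were 5.38% of all loci (0.52, SE 0.21). It measured 36.6, 12.6, 80.6 and 72.8 CPM in the control lines and 163, 76.6, 99.8 and 99.8 CPM in the KO lines. Its control and KO counts were 4 and 6 in clone 19 and 1 and 3 in clone 20. Tfrc, the transferrin receptor, was also higher in all 4 (0.51, SE 0.21), and Gpi1 (0.40), Ccne1 (0.46) and Dusp5 (0.39) were higher in 3. Jun was lower in 3 of 4 pairs (-0.44). The housekeeping list had a median of -0.02, with Ppia (0.47) at an unadjusted p under 0.05.

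**Figure D3:**
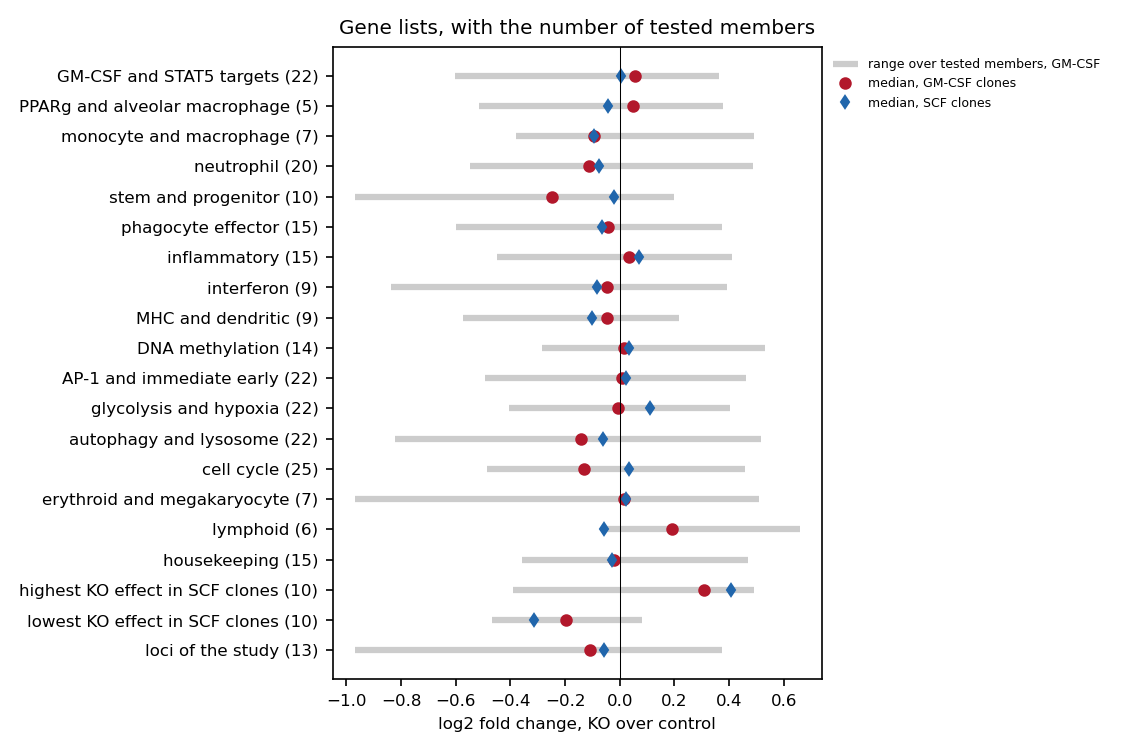
For each gene list (vertical axis, number of tested members in parentheses), the range of the log2 fold change of KO over control over tested members in the GM-CSF clones (grey bar), its median (red circle) and the median in the SCF clones (blue diamond). The loci with the largest rises and falls in the SCF clones have medians of 0.31 and -0.20, and the stem and progenitor list has a median of -0.25.

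To use the shallow clones better, counts were pooled over groups of peaks. CpG-dense promoters, which hold most CpG islands, took 33.9, 31.0, 36.2 and 37.6% of counts in control lines 19 to 22 and 29.8, 32.5, 37.1 and 35.8% in the KO lines. The log2 ratios were -0.18, 0.07, 0.03 and -0.07, so that 2 clones were higher and 2 lower. The mean was -0.04 ± 0.11 (SD, n = 4, exact sign-flip p = 0.625). CpG-poor promoters, exons, introns, intergenic peaks and CpG-dense peaks away from promoters had means between -0.04 and 0.03. No group passed the test of the difference from the 24 SCF pairs, with an adjusted p of 0.564 for each of the 6 groups by exact permutation of the clones, and the SCF pairs themselves ranged from -0.45 to 0.49 for CpG-dense promoters.

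Peaks that mark the GM-CSF state, chosen anew for each clone, differed between shallow and deep clones. Those open mainly in GM-CSF clones had log2 ratios of -0.76 and -0.26 in clones 19 and 20 and of 0.02 and -0.02 in clones 21 and 22, with counting intervals of -0.91 to -0.62, -0.40 to -0.12, -0.03 to 0.07 and -0.07 to 0.04. Peaks open mainly in SCF clones had 0.47 and 0.17 in clones 19 and 20 and -0.09 and -0.01 in clones 21 and 22. The KO lines of clones 19 and 20 thus had less of the GM-CSF peaks and more of the SCF peaks than their controls, while in clones 21 and 22 the intervals of the GM-CSF peaks included 0. For the SCF peaks the interval of clone 21 lay below 0 (-0.14 to -0.04), opposite to clones 19 and 20. That of clone 22 included 0 (-0.06 to 0.04). Over 4 pairs the exact sign-flip permutation test, which cannot go below 0.125, gave p = 0.375 and 0.5, and neither group passed the test of the difference from the SCF pairs (adjusted p = 0.613 and 0.302). Among the SCF pairs the GM-CSF peaks were above 0 in 1 of 24, with a mean of -0.20. Without clone 19 the mean over the GM-CSF pairs went from -0.25 to -0.08. The sets differed in size, with 1662, 1634, 753 and 493 GM-CSF peaks and 8195, 7935, 5668 and 4908 SCF peaks for clones 19 to 22. Set and clone cannot be told apart here, and the part of depth in clones 19 and 20 was not tested.

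**Figure D4:**
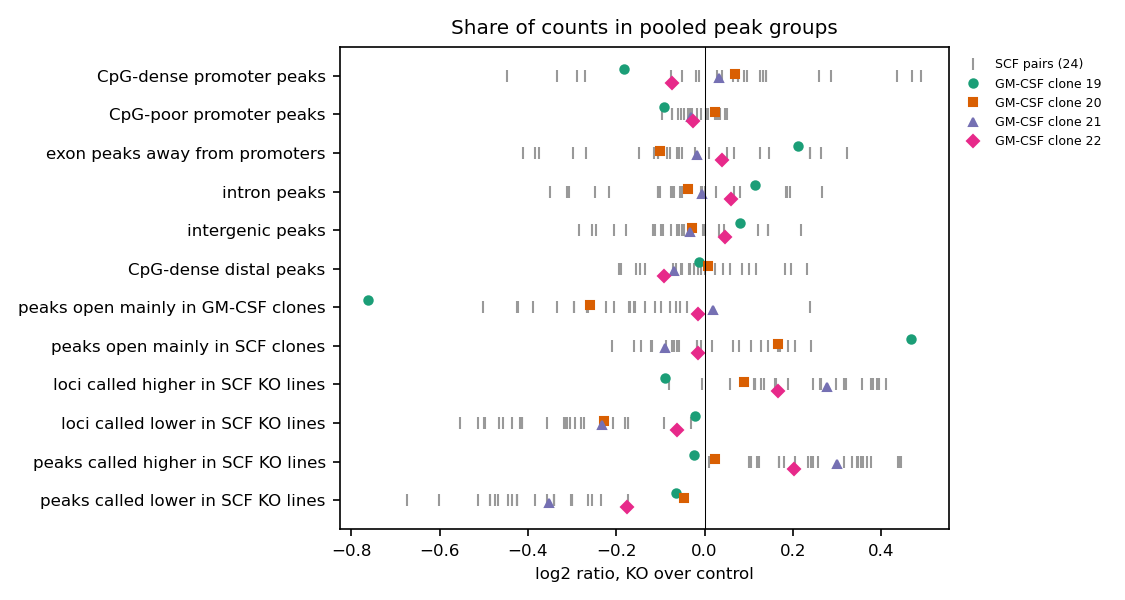
Log2 ratio of the share of counts, KO over control (horizontal axis), for pooled peak groups, with GM-CSF clones 19 to 22 as colored symbols and the 24 SCF pairs as grey ticks. Clone 19 stands at -0.76 for peaks open mainly in GM-CSF clones and at 0.47 for peaks open mainly in SCF clones, beyond the other pairs.

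Peaks were also pooled by the transcription factor motifs they hold, as the log2 of observed over expected counts with the expected counts set by promoter class, GC content and accessibility, for 30 motifs matched on both strands. The smallest p that 4 pairs allow, 0.125 in an exact sign-flip permutation, was reached by the 8 of 30 motifs that moved one way in every pair. The SP box (CCCCGCCC), held by 3.73% of peaks, was above 0 in all 4, with 0.036, 0.046, 0.044 and 0.029, and a mean of 0.0385 ± 0.0076 (SD, n = 4). The SCF pairs had a mean of 0.0366 and 21 of 24 above 0, and the difference was 0.0018 (adjusted p = 0.941, exact permutation). Without standardization the GM-CSF mean at the SP box was 0.0065 and the pairs no longer moved one way (exact p = 1). The ETS motif (CCGGAAGT) was below 0 in all 4 GM-CSF pairs, with a mean of -0.020, and in all 24 SCF pairs, with a mean of -0.040. Factors of the GATA family, which act in stem, erythroid and mast cells, had their site (AGATAAG) above 0 in all 4 pairs with 0.157, 0.066, 0.055 and 0.044. RUNX (TGTGGT), EGR (GCGNGGGCG) and the composite site of PU.1 and IRF were above 0 in all 4 with means of 0.020, 0.023 and 0.016, and CEBP (TTGCNNAA) and the interferon-stimulated response element were below 0 with means of -0.026 and -0.047. The CEBP mean without clone 19 was -0.0083, and the EGR mean went below 0 without standardization (-0.0075) and with distal peaks alone (-0.0081). STAT5 (TTCNNNGAA), the factor below the GM-CSF receptor, was at -0.013 ± 0.015 (SD, n = 4), against -0.013 in the SCF pairs.

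Against the SCF pairs, 3 of the 30 motifs passed an adjusted p threshold of 0.05 by exact permutation of the clones, each with 0.0488. The composite of CEBP and ATF (TGATGCAA) was 0.084 lower, at -0.077 against 0.0070, the composite of PU.1 and IRF 0.039 higher, at 0.016 against -0.023, and the TFE E-box (TCACGTGA), the lysosomal gene element, 0.078 higher, at 0.035 against -0.044. Each of these calls was lost without clone 19, without clone 20, with both summed into 1 pair and with distal peaks alone, and the E-box then stood at a difference of -0.043. In the deep clones 21 and 22 the E-box was at -0.005 and -0.027.

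**Figure D5:**
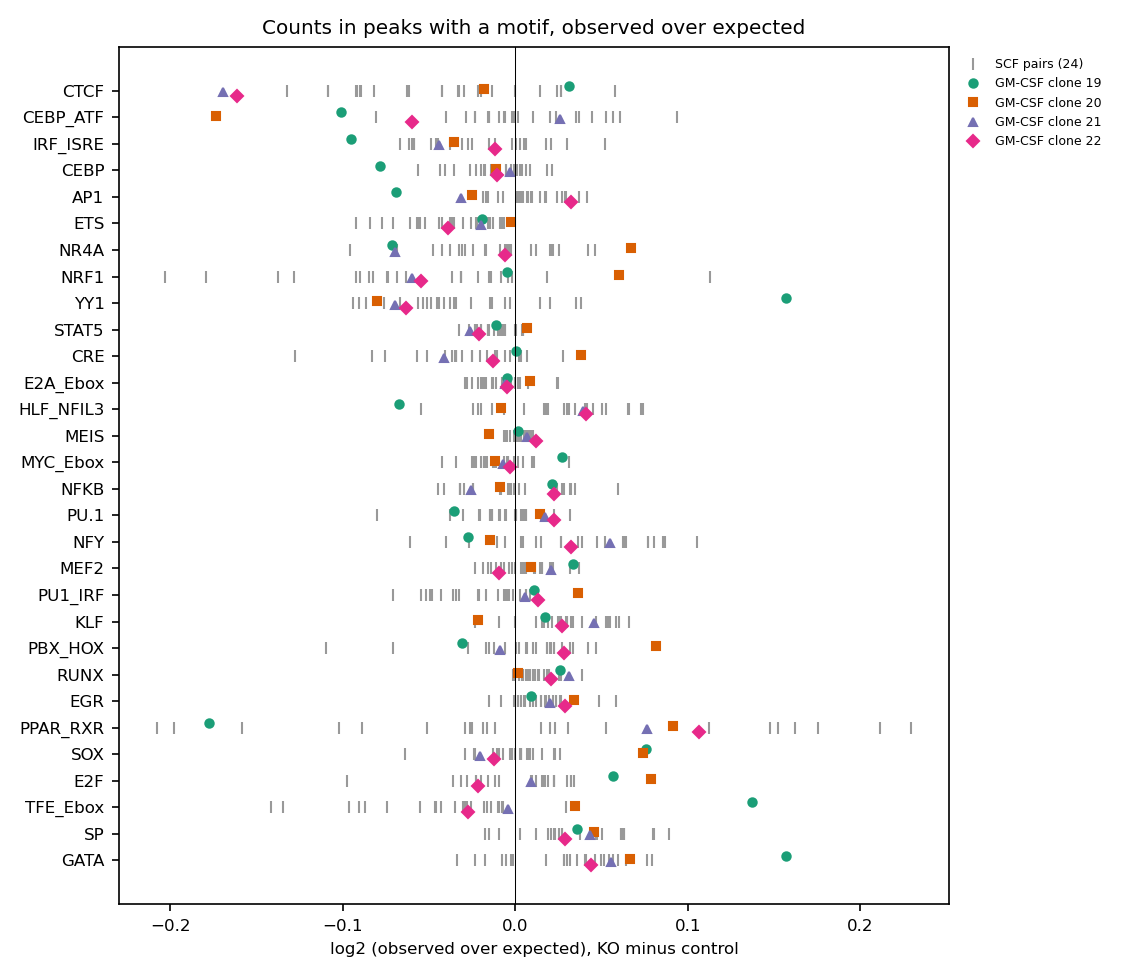
KO minus control of the log2 of observed over expected counts (horizontal axis) in peaks that hold each of 30 motifs (vertical axis, in order of the GM-CSF mean), with GM-CSF clones 19 to 22 as colored symbols and the 24 SCF pairs as grey ticks. For CTCF, clones 21 and 22 stand at -0.17 and -0.16, beyond all SCF pairs, and clones 19 and 20 near 0.

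CTCF sites, held by 0.968% of peaks, had fewer counts in the KO lines of the deep clones 21 and 22. Peaks with the motif took 1.33% of counts in control line 21 and 1.14% in its KO line, and 1.28% and 1.11% in clone 22. In clone 19 they took 1.09% and 1.04%, and in clone 20 1.09% and 1.06%. After standardization the values were 0.03, -0.02, -0.17 and -0.16 in clones 19 to 22, with 95% counting intervals of -0.13 to 0.19, -0.18 to 0.15, -0.22 to -0.12 and -0.21 to -0.11. The lowest of the 24 SCF pairs was -0.13, so clones 21 and 22 lay below all of them, and the wide interval of clone 20 included their values. As a group the GM-CSF pairs did not pass the test of the difference from the SCF pairs (difference -0.038, adjusted p = 0.477, exact permutation). Without standardization, the share over all peaks gave -0.08, -0.03, -0.22 and -0.20, with 2 SCF pairs lower than clone 21 and 4 lower than clone 22. Over distal peaks it gave -0.21, -0.04, -0.26 and -0.28, where clone 19 (counting interval -0.40 to -0.03) lay near the deep clones and 6 and 5 SCF pairs lay below clones 21 and 22. With strata formed on library means of equal weight, added after the data were seen, the mean was -0.19, and that version passed the threshold of the difference. In clones 21 and 22 the share of distal counts that fell in CTCF peaks decreased by 16.3% in clone 21 and decreased by 17.8% in clone 22. Of the distal CTCF peaks, 2448 had no CpG inside the motif and 174 did. The 2448 peaks gave -0.17, 0.01, -0.26 and -0.30 in clones 19 to 22. The 174 peaks gave -0.71, -0.66, -0.27 and -0.13, with 20 and 19 counts in KO lines 19 and 20. Methylation was not measured in these libraries, and its part was not tested.

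Shown are 4 distal CTCF peaks with high counts in control lines 21 and 22, with 60 bases around the site. They were ranked among part of the intron and intergenic peaks, without exon peaks, so other distal CTCF peaks may hold more counts. The sequences are from GRCm38 and capitals mark the CTCF site. CTCF 1 lies at chr7:38085009-38085068 on the forward strand, between genes and 22518 bp from the Ccne1 start. CTCF 2 lies at chr7:73618491-73618550 on the reverse strand, between genes, CTCF 3 at chrX:73915117-73915176 on the forward strand in an intron near Arhgap4, and CTCF 4 at chr8:105622542-105622601 on the forward strand in an intron near Mir1966.
CTCF 1: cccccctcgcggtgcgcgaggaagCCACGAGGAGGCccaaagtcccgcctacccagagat
CTCF 2: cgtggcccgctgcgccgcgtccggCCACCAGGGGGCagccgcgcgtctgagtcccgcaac
CTCF 3: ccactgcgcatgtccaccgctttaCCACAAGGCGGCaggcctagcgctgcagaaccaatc
CTCF 4: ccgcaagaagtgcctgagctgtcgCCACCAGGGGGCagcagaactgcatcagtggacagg
The peak of CTCF 1 measured 85.9 and 79.4 CPM in control lines 21 and 22 and 97.1 and 108 CPM in their KO lines. CTCF 2 measured 82.2 and 70.7 CPM against 76.9 and 63.1 CPM. CTCF 3 measured 54.2 and 48.4 CPM against 60.7 and 56.3 CPM, and CTCF 4 43.0 and 31.0 CPM against 40.5 and 24.8 CPM. The KO lines were higher at CTCF 1 and CTCF 3 and lower at CTCF 2 and CTCF 4, with between 11 and 64 counts in each library.

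The last measure was how far apart the lines of a clone were over all loci, as a squared distance from which the counting part was subtracted. It was 0.0222, 0.0282, 0.0159 and 0.0041 in clones 19 to 22. The mean was 0.0176 ± 0.0103 (SD, n = 4) in the GM-CSF pairs and 0.0130 in the 24 SCF pairs, and the difference did not pass (exact permutation p = 0.394). By these values the lines were closest in clone 22 and farthest apart in clone 20, but no error was computed for the distances. In clone 20 the difference was near sampling noise (chi-square test p = 0.0436, chi-square per degree of freedom 1.04). In the deeper clone 21 it was far beyond it (chi-square test p = 5.6e-69, 1.29 per degree of freedom). By the same distance KO lines 21 and 22 lay 0.00082 from each other and control lines 21 and 22 0.0045, and the KO line of clone 21 was nearer to that of clone 22 than to its own control line. Control lines 19 and 20 lay 0.0016 from each other and KO lines 19 and 20 0.0254. The 2 KO lines did not differ beyond sampling noise (chi-square test p = 0.726), nor did the 2 control lines (p = 0.221). With clones 19 and 20 summed into 1 pair the mean distance was 0.0116.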

How the data were processed

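ATAC-seq libraries of 1000 cells each were made with barcoded Tn5. The deposited matrix holds raw, unscaled counts for 297361 peaks of 301 bp in 56 libraries. The authors aligned reads to mm10 with Bowtie2, handled them with SAMtools and Picard, and took peaks from MACS2 summits of single-cell ATAC-seq with added ImmGen peaks. No version of Bowtie2, SAMtools or Picard was found in the sources, nor whether fragments or insertions were counted. Intervals of pooled groups and motifs cover counting error only. Those of loci come from the edgeR fit and hold a spread between clones that is shared with the SCF clones.

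Groups came from the treatment and genotype fields, and lines were paired by clone, as both lines of a pair were made from 1 clone. Sign-flip and permutation p-values measure the spread between clones. EdgeR p-values of the main fit measure a spread that the SCF and GM-CSF clones share, not that of the GM-CSF clones alone. Chi-square p-values compare single libraries against sampling noise and hold no spread between clones. The text of the paper describes the clones as made from a Tet2 fl/fl mouse, while its reporting summary names mice and lines of both sexes. No animal or sex was assigned to a clone here, and no p-value here measures the spread between animals. Peaks were placed with GENCODE vM21 basic (GRCm38). Promoters lay within 1 kb of a start site, and CpG-dense regions had an observed over expected CpG ratio of at least 0.6 and a GC share of at least 0.5. Of 21755 protein-coding genes, 18715 had a peak within 10 kb, and neighboring genes can share peaks. Loci and peaks with at least 80 counts over the 8 libraries were tested with edgeR 4.0.16 (R 4.3.3, quasi-likelihood, TMM, Benjamini-Hochberg), with the clone as a block and separate KO terms for SCF and GM-CSF clones in 1 fit of 56 libraries. The study used DESeq2, which was run here as an alternative (version 1.42.0). CPM were counts over TMM-scaled totals.

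Pooled groups were compared as log2 ratios of the share of counts, by exact sign-flip over 4 pairs and exact permutation of clones, 4 against 24, two-sided and adjusted over 6 annotation groups, 2 cytokine groups or 30 motifs. Motif strata of promoter class, GC decile and accessibility decile used pooled counts of the other clones. The distance was the sum of squared differences of count shares over loci, less its Poisson part, over the mean share. Zero counts were given a limit of 3 counts, and intervals are at 95%. The tests were checked on simulated data. Python 3.11.15 with scipy 1.17.1 and numpy 2.4.6 was used.

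The members and the gene lists were chosen with earlier results of these data known. Named loci were those past the threshold, the 10 with the smallest p each way, 5 peaks each way, 5 loci for the difference, the lists of SCF loci and of the study's loci, Tet2 and the receptor genes, and up to 4 members of other lists with an unadjusted p under 0.05.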

Additional observations from a re-analysis of the deposited data

Results flagged for a closer look

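Of 187 groups of 4 values examined, 10 (5.35%) held 1 value far from the other 3, where chance gives about 1 in 20. For loci these were control line 19 at Pknox1 (137 CPM) and at Bnip3 (247 CPM), control line 20 at Wipi1 (202 CPM), KO line 20 at Sp4 (230 CPM) and KO line 22 at Cebpe (107 CPM). For motifs, clone 19 stood apart at PU.1 (-0.036), CEBP (-0.079), YY1 (0.157) and the PPAR and RXR repeat (-0.177), and clone 20 at the E2A E-box (0.0086). Of these 10 values, 9 were in the shallow clones 19 and 20.

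For 3 motifs the KO effect differed between GM-CSF and SCF pairs in an exact permutation test over clones (adjusted p = 0.0488 for each). The differences were -0.084 for the composite of CEBP and ATF, with 3 of 4 GM-CSF pairs below 0, 0.039 for the composite of PU.1 and IRF, with 4 of 4 above 0, and 0.078 for the TFE E-box, with 2 of 4 above 0.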

How the results depend on the processing

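The call at Pknox1 and the count of loci called depended on the fit. In place of 1 locus called higher, 0 were called with DESeq2, without clones 19 and 20 and with 50 kb windows, and 3 with at least 200 counts, with the promoter share as a covariate and with the GM-CSF libraries alone. For single peaks, DESeq2 called 0 in place of 1. Leaving out 1 clone gave between 0 and 1 locus, and between 0 and 1 peak. For the difference from SCF clones, 1 locus was called with 1 kb windows and 1 peak with at least 200 counts, in place of 0. The cause of these changes was not tested.

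In the fit with no replicate block, that is, without the pairing of lines by clone, 0 loci and 0 peaks were called higher.

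The number of motifs past the threshold of the difference from SCF pairs was 3. It was 0 with clones 19 and 20 summed, 0 without standardization, 0 with distal peaks alone, 5 with strata from library means of equal weight (an alternative added after the data were seen), and between 0 and 6 when 1 clone was left out. The difference at the TFE E-box was reversed with distal peaks alone, at -0.043. Peaks open mainly in GM-CSF clones could not be measured without clone 21 or without clone 22, since too few counts remained to choose them.

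Of the values that answer a comparison, 281 kept their direction and side of the threshold, or stayed within the spread or 1.5 times, under the alternatives tried, and 24 moved. Each value was counted once for every alternative. The 281 include counts of 0 calls that stayed 0, such as loci called lower in all 15 alternatives. Among the other values 1506 were kept, 129 moved, 26 became weaker, 11 became stronger and 1 was reversed. With 4 pairs, 2 of them shallow, the median standard error was 0.249 at loci and 0.274 at peaks on the log2 scale, and 3 counts stood for 81.3 and 76.6 CPM in KO lines 19 and 20.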

Other observations

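Counts on the X chromosome also varied between lines of the shallow clones. The log2 ratio of the share of counts on X, KO over control, was -0.24 in clone 19, -0.14 in clone 20, 0.04 in clone 21 and -0.0039 in clone 22, and the 24 SCF pairs lay between -0.16 and 0.23. The share itself was between 1.09% and 1.29% in the libraries of clones 19 to 22. It was between 1.47% and 1.67% in SCF clones 1 to 18 and between 1.13% and 1.40% in SCF clones 23 to 29. The SCF clones were thus not uniform in this share, and the part of animal or sex was not tested.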
